A study of Homo sapiens with 24 samples.

Results

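The small cell lung cancer lines DMS454 and H1694 were each measured in 2 arms, and the question was for which genes the step from one arm to the other differed between the lines. The comparison used 12 of the 24 RNA sequencing libraries of the study, 3 per arm and line, and 15460 of 60668 genes, those that averaged 10 normalized counts or more in at least 1 arm of each line. In DMS454 (supplier Sigma) the libraries with the column code pL were titled CRISPR and carried the genotype HEPACAM2 knockdown, and those with the code G2 were titled Cont and carried the genotype WT. H1694 (NCI-H1694, supplier ATCC) was labelled the same way, with pL columns for the CRISPR titles and G6 columns for the Cont titles. The meaning of the codes was not stated, and no label said whether an arm was a single clone or a pool of edited cells. The libraries labelled as knockdown held more HEPACAM2 mRNA than those labelled as WT in both lines, so the arms are named here by column code. A change means G2 minus pL in DMS454 and G6 minus pL in H1694, on the log2(normalized count + 1) scale, and the difference of changes is the DMS454 change minus the H1694 change. The submitters described 3 independent biological replicates per group.

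HEPACAM2 belongs to the immunoglobulin superfamily of adhesion proteins. Several of the pathways that set the lines apart have well known wiring. SREBP transcription factors, the products of SREBF1 and SREBF2, switch on the genes of cholesterol and fatty acid synthesis when cell sterol is low, and INSIG1 holds them back. Interferons act through STAT and IRF factors on response elements near the starts of genes for antiviral proteins and for the machinery that loads peptides on MHC class I. Notch receptors, bound by Jagged or Delta ligands, release an intracellular domain that induces the HES and HEY repressors, and Notch signalling is known to oppose the neuroendocrine state of small cell lung cancer.

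Marker genes are given here to check the labelled cell type, each line on its own scale. NEUROD1, which marks one of the subtypes of this cancer, had a median of 82.5 normalized counts over the 6 DMS454 libraries and 21559 over the 6 H1694 libraries. CHGA, SYP and INSM1, general neuroendocrine genes, were well above the floor in both. The epithelial genes EPCAM and CDH1 had medians of 11224 and 10062 in the DMS454 table. In the H1694 table they had 72.5 and 9.73, and the endothelial cadherin CDH5 had a median of 3401 in H1694. PTPRC, CD3E and LUM, of blood cells and fibroblasts, had a median of 0 in both lines. DCN, PDGFRB and LYZ had medians of at most 3.85. Other markers of these cells were above the floor. COL1A2 had medians of 49.3 in DMS454 and 1212 in H1694, COL1A1 90.2 and 102, and CD14 43.6 and 8.85. Each line's table was normalized on its own, so levels are compared only within a line.

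Library totals ran from 15652553 to 30241598 reads in DMS454 and from 19682771 to 31770858 in H1694. 1 pL library of each line, DMSpL3 and H1694pL1, stood apart from its replicates, with a chi-square per degree of freedom of 16.49 to 27.15 in its 4 pairs against 1.792 to 7.363 in the other 8 replicate pairs. Mitochondrially encoded genes took 4.55% to 5.02% of reads in the G2 libraries and 3.14% to 5.42% in the pL libraries of DMS454, with DMSpL3 highest. In H1694 they took 3.61% to 4.97% in G6 and 3.21% to 6.29% in pL, with H1694pL1 lowest. Their part in the results below was not tested beyond leaving these libraries out.

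HEPACAM2 itself (chromosome 7, 93188586 to 93226524, minus strand, hg38) was lower in the G arms of both lines. In DMS454 it stood at 11460.0, 11256 and 10844 normalized counts in the pL libraries and 6430.1, 6543 and 6677 in the G2 libraries. In H1694 the values were 10124, 10545 and 10399 in pL and 3433, 3551 and 3688 in G6. Every G library lay below every pL library of its line. The arm means were 1.71-fold apart in DMS454 and 2.91-fold apart in H1694. The drop was thus deeper in H1694: the log2 changes were -0.77 (SE 0.04) and -1.54 (SE 0.04), and their difference was 0.77 (SE 0.05, limma adjusted p = 8.6e-08). As these are bulk RNA samples, fewer cells expressing a gene and less of its RNA per cell cannot be told apart, here or for any gene below.

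Opposite changes between the lines were as many as shared ones. SREBF1, STARD4, HEY1 and LFNG were higher in G2 than in pL in DMS454 and lower in G6 than in pL in H1694, and 20 of 34 sterol and fatty acid genes were lower in G6. COL4A4, NRP1 and PSMB8 were lower in G2 and higher in G6, and 10 of 19 class I antigen genes were higher in G6. APCDD1 was lower, and VGLL3, GRIN2C and TXNRD1 were higher, in both G arms. The difference of changes passed an adjusted p of 0.05 (limma, Benjamini-Hochberg over all 15460 genes) for 3126 genes, or 20.2% of those tested, of which 1517 (9.81%) lay above 0 and 1609 (10.4%) below. Of these, 416 (2.69% of tested genes) had an absolute difference of at least 1 on the log2 scale. DMS454 had 3364 called genes (21.8%), 1685 higher and 1679 lower in G2 (10.9% and 10.9%). H1694 had 2076 (13.4%), 1115 higher and 961 lower in G6 (7.21% and 6.22%). The libraries of the arms did not overlap for 37.1% of tested genes in DMS454 and 35.2% in H1694.

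Both lines called 660 genes (4.27%), split evenly between shared and opposite directions. Shared calls numbered 183 higher in both G arms (1.18% of tested genes, 10.9% of the DMS454 and 16.4% of the H1694 calls in that direction) and 147 lower in both (0.951%, 8.76% and 15.3%). Opposite calls numbered 174 higher in G2 and lower in G6 (1.13%, 10.3% of the DMS454 and 18.1% of the H1694 calls) and 156 the other way (1.01%, 9.29% and 13.99%). All 330 opposite genes were also called in the difference of changes, and 40 of the 330 shared genes were. Of the remaining called differences, 1521 were called in DMS454 alone, 812 in H1694 alone and 423 in neither line. Across genes the changes of the lines had a Pearson correlation of -0.03 and a Spearman correlation of -0.05 over 15460 genes, which are not independent points since all genes share the same 12 libraries. Without DMSpL3 the shared calls came to 642 and the opposite calls to 588. The shared calls came to 218, 209 and 218 without H1694G61, H1694G62 or H1694G63, and the opposite calls to 209, 190, 204 and 200 without H1694G61, H1694G62, H1694G63 or H1694pL2. The H1694 calls came to 1342, 1292 and 1320 without H1694G61, H1694G62 or H1694pL2. Leaving out DMSpL3 and H1694pL1 together gave 5023 called differences, and 2977 of the 3126 were among them in the same direction.

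**Figure D1:**
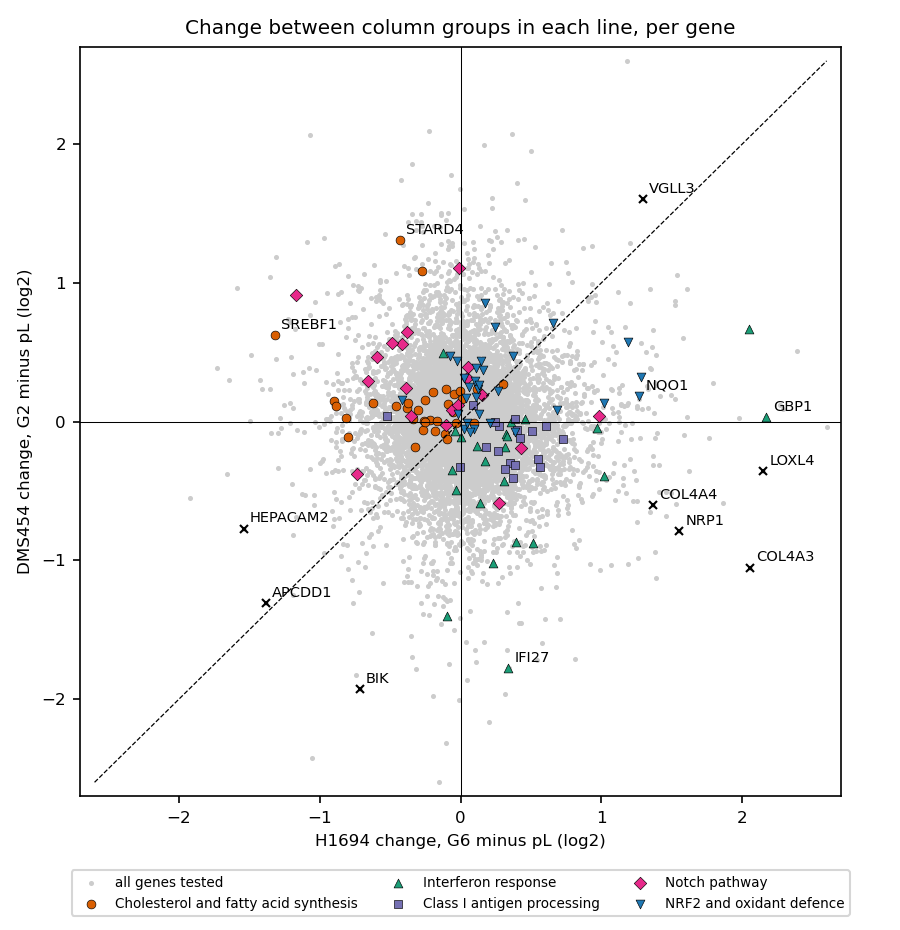
Each point is 1 gene, with its change in H1694 (G6 minus pL, log2) on the x axis and its change in DMS454 (G2 minus pL, log2) on the y axis; grey points are all 15460 genes, held at the edge beyond ±2.6, coloured symbols are 5 gene lists, crosses are single genes, and the dashed line marks equal change. Sterol genes such as SREBF1 and STARD4 sit upper left, COL4A3, COL4A4 and NRP1 lower right, and VGLL3 and APCDD1 near the dashed line.

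Cholesterol and fatty acid synthesis genes differed in one direction. All 34 members were tested, 21 (61.8%, against 20.2% of all genes) had a called difference, and every one of these lay above 0. In H1694 20 members were lower in G6, against 6.22% of all genes, and none was higher. In DMS454 8 were higher and 1 was lower in G2. The list medians were 0.26 for the difference, 0.10 in DMS454 and -0.25 in H1694, against -0.01, -0.01 and 0.00 over all tested genes. The 5 members SREBF1, SREBF2, STARD4, FADS2 and NSDHL were called in opposite directions, each higher in G2 and lower in G6, and DHCR7, the final enzyme of cholesterol synthesis, was lower in both (-0.18 in DMS454 and -0.32 in H1694). The DMS454 call of NSDHL was lost without DMSG21 or DMSG23 and its H1694 call without H1694G61, H1694G62, H1694G63 or H1694pL1 (adjusted p 0.054 to 0.12). The number of called members ran from 17 to 23 over the other settings tried, apart from a minimum absolute log2 difference of 1.

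SREBF1 (chromosome 17, 17810399 to 17837002, minus strand), which encodes the SREBP that favours fatty acid genes, had 785, 785 and 818 normalized counts in the DMS454 pL libraries and 1202, 1313 and 1176 in G2. Its H1694 values were 3247, 3388 and 3671 in pL and 1416, 1354 and 1355 in G6. The arms did not overlap in either line and were reversed between them. The difference of changes was 1.94 (SE 0.08, limma adjusted p = 2.6e-10), from 0.63 in DMS454 and -1.32 in H1694. STARD4, a carrier that moves cholesterol between membranes, had 129, 138 and 155 in pL and 341, 342 and 364 in G2, a 2.48-fold higher mean. In H1694 it had 1096, 1117 and 1079 in pL and 822, 811 and 808 in G6. The G2 libraries thus lay far above the pL libraries and the G6 libraries below theirs, with a difference of 1.74 (SE 0.11, adjusted p = 1.7e-08). FADS2, a desaturase of polyunsaturated fatty acids, had the same shape, with means of 434 ± 23.3 and 925 ± 69.1 (SD, n = 3) in DMS454 pL and G2, and 6977 ± 407 and 5770.3 ± 112 in H1694 pL and G6 (difference 1.36, adjusted p = 1.9e-08).

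Feedback and pathway genes changed in H1694 and gave no call in DMS454. INSIG1, the anchor that retains SREBPs in the endoplasmic reticulum, had 2418, 2198 and 2204 in H1694 pL and 1179, 1300.3 and 1184 in G6, and 1912, 1889.8 and 1489 against 1908, 1984 and 1945 in DMS454. The H1694 arms were clearly apart and the DMS454 arms overlapped, with DMSpL3 lowest, and the difference of changes was 1.05 (adjusted p = 1.7e-05). SCD, the desaturase that makes oleate, and HMGCS1, an early enzyme of the mevalonate pathway, were lower in G6 by 1.76-fold and 1.74-fold, while their DMS454 changes were 0.03 (adjusted p = 0.79) and -0.11 (adjusted p = 0.24). FDFT1 and LSS, which make squalene and lanosterol, had H1694 changes of -0.63 and -0.46, and differences of 0.76 and 0.57. ABCG1, a sterol exporter and a target of the sterol sensor LXR, is not on the list and was among the 10 largest positive differences. It had 294, 270.3 and 281 in H1694 pL and 98.3, 81.1 and 75.2 in G6, against 129, 134 and 92.5 and 133, 182 and 149 in DMS454 pL and G2, where the arms overlapped. The difference of changes was 2.11 (SE 0.23, adjusted p = 8.8e-06).

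**Figure D2:**
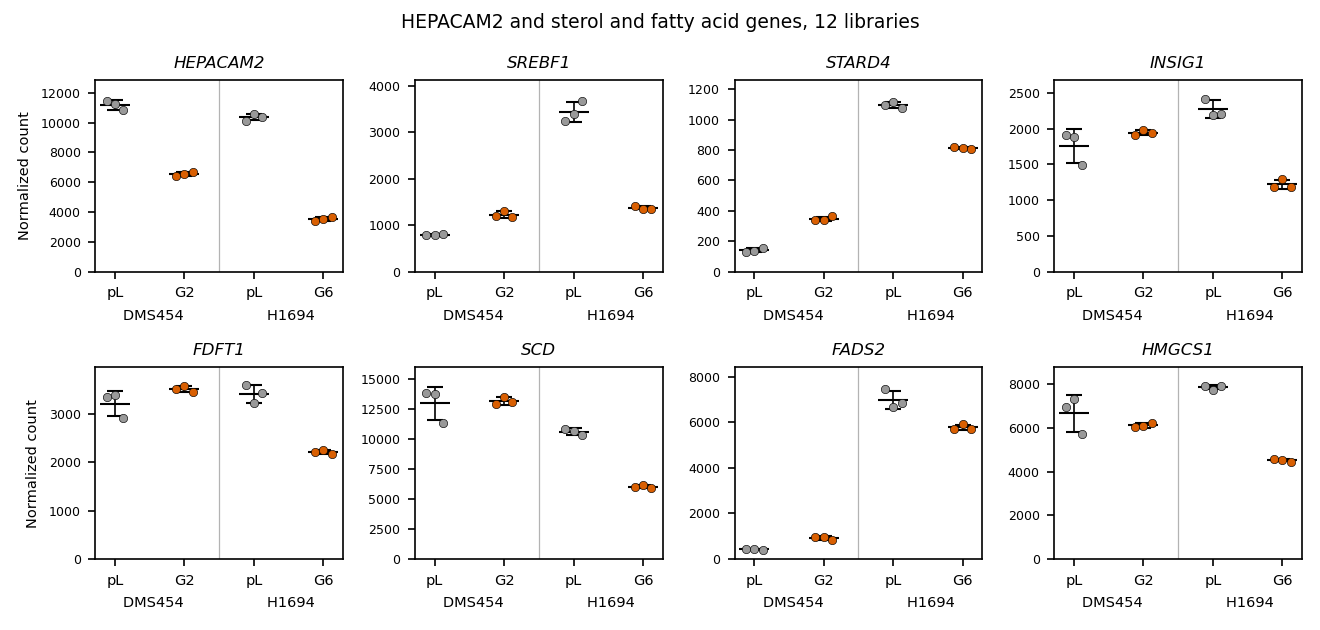
Normalized counts per library (y axis, from 0) of HEPACAM2 and 7 sterol and fatty acid genes in the pL and G arms of DMS454 and H1694 (x axis); points are libraries, the long bar is the mean and the whiskers are the SD of 3, and levels are not comparable between lines. SREBF1, STARD4 and FADS2 reverse between the lines, whereas INSIG1, FDFT1, SCD and HMGCS1 were called in H1694 alone.

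The sterol regulatory element, the letters TCACNCCAC on either strand, was searched in the 250 bases before each gene's start in the RefSeq promoter table (GRCh38.p14). Of the 34 members 26 had a promoter there, and 1 of them, SREBF2 itself, held the letters (3.85%, against 0.875% of all 27305 promoters). The stretch is shown because the gene is called in the difference (0.51, adjusted p = 4.5e-06) and encodes the SREBP that favours cholesterol genes. It lies at chr22:41832962-41832990, plus strand, 143 to 115 bases before the start, in an annotated exon of SREBF2-AS1, with the element in capitals.
SREBF2: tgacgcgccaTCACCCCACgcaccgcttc
The SREBF2 changes were 0.14 in DMS454 and -0.37 in H1694, and the DMS454 call was lost without DMSG22 (adjusted p = 0.05).

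Called differences of class I antigen processing and interferon response genes lay below 0. Of 19 tested class I members (of 23) 11 had a called difference (57.9%), all below 0, with 10 higher and none lower in G6 and 5 lower and none higher in G2. The medians were -0.54 for the difference, -0.12 in DMS454 and 0.37 in H1694. Of 23 tested interferon members (of 39) 12 were called (52.2%), again all below 0, with 6 higher in G6, 7 lower in G2 and no gene called in both lines. Their medians were -0.50, -0.19 and 0.32, and the difference median was -0.76 without DMSpL3 and H1694pL1. The summed level of the interferon list was 22584 in DMSpL1, 23357 in DMSpL2 and 16053 in DMSpL3, against 16060.5 to 16474 in G2. DMSpL3 thus lay below every G2 library, and the lower sum in G2 rests on DMSpL1 and DMSpL2. Over all genes, 20.2% had a called difference, 7.21% were higher in G6 and 10.9% were lower in G2. Blood markers stayed under the filter (0 of 12 tested), with a summed level of 39.4 to 51.7 in G2 and 46.6 to 68.7 in DMS454 pL, and 11.8 to 18.2 in G6 and 13.5 to 16.9 in H1694 pL. PTPRC was at most 0.832 normalized counts in any of the 12 libraries, and CD14 had medians of 43.6 in DMS454 and 8.85 in H1694. The part of blood cells in these results was not tested.

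B2M, the light chain of class I, had 3686, 3615 and 3600.0 in H1694 pL and 4792, 4769 and 4678 in G6, and 7780.0, 7743 and 7889.6 against 7960.2, 7827 and 7950.5 in DMS454. The H1694 arms were clearly apart and the DMS454 arms overlapped (difference -0.37, SE 0.05, adjusted p = 6.1e-05). TAP1, a chain of the peptide pump into the endoplasmic reticulum, had 427, 385 and 351 in H1694 pL and 541, 519 and 491 in G6, with overlapping arms in DMS454 (337, 348 and 300.02 in pL and 309.6, 325 and 271 in G2). Its difference was -0.54 (SE 0.13, adjusted p = 0.0095). PSMB8, a subunit of the immunoproteasome, was one of 3 members with opposite calls. It had 663, 686 and 698 in DMS454 pL and 566, 544 and 535 in G2, and 359, 337 and 369 in H1694 pL and 458, 501 and 438 in G6. No libraries overlapped between arms in either line, and the difference was -0.70 (SE 0.10, adjusted p = 0.00013). ERAP2, an aminopeptidase that trims peptides for class I, had an H1694 change of 0.73 and a DMS454 change of -0.12 (difference -0.85, adjusted p = 0.0003). TAPBP, the bridge between TAP and class I, had changes of 0.40 in H1694 and -0.06 in DMS454. HLA-C and ERAP1 were the other 2 opposite members. HLA-C was lower in G2 (-0.30) and higher in G6 (0.35), but its reads can be shared with near-identical HLA genes, and the H1694 call was lost with limma-voom (adjusted p = 0.067). The ERAP1 changes were -0.40 and 0.37, and the H1694 call was lost without H1694G62 (adjusted p = 0.055).

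Within the interferon list no gene passed the threshold in both lines, though the estimates leaned opposite ways. Of 23 members 4 had an estimate above 0 in DMS454 and 18 in H1694. GBP1, an interferon-induced GTPase, had 2.53, 0.88 and 3.67 in H1694 pL and 14.2, 12.01 and 13.3 in G6, all low values, and 87.3, 79.9 and 49.9 and 73.3, 64.00 and 79.3 in DMS454 pL and G2. PARP14, an ADP-ribosyltransferase induced by interferon, had 33.7, 30.8 and 35.5 in H1694 pL and 74.6, 61.6 and 63.1 in G6. In DMS454 its arms overlapped, with 576, 597 and 473 and 513, 538 and 538. The difference of changes of PARP14 was -1.01 (SE 0.18, adjusted p = 0.00074). In H1694 GBP1 reached a mean of 10 in the G6 arm alone, so it entered the test through the arm where it is high, and its values are a description. IFIT3, an antiviral protein of the IFIT complex, had an H1694 change of 1.02 (adjusted p = 0.005) and a DMS454 change of -0.39 (adjusted p = 0.23). OAS1, which makes the activator of RNase L, was called in DMS454: it had 141, 141 and 91.1 in pL and 48.9, 42.4 and 45.9 in G2. In H1694 it had 63.3, 55.5 and 69.7 in pL and 75.8, 52.6 and 49.7 in G6, which overlapped. Its difference was -1.30 (SE 0.29, adjusted p = 0.0049). IFI27 had a DMS454 change of -1.77 and a difference of -2.11 (adjusted p = 0.015), and the difference was not called with limma-voom (adjusted p = 0.093). For both genes DMSpL3 was the lowest pL library.

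The interferon-stimulated response element was searched as GAAANNGAAA on both strands in the same 250 bases. It was present in 6 of the 16 class I members with a promoter in the table (37.5%) and in 11 of the 19 interferon members (57.9%), against 839 of all 27305 promoters (3.07%). Among class I members it was in 5 of the 9 called in the difference and 1 of the 7 not called. Among interferon members it was in 6 of the 11 called and 5 of the 8 not called. The windows of 4 called genes are shown because these genes separated the arms in H1694 and not in DMS454, with matches in capitals, read as TTTCNNTTTC where the element is on the other strand, and neighbouring matches overlapping in the first 3. They are TAP1 (chr6:32853816-32853845, minus strand), B2M (chr15:44711366-44711395, plus), TAPBP (chr6:33314079-33314105, minus) and PARP14 (chr3:122680800-122680829, plus), all GRCh38.p14.
TAP1: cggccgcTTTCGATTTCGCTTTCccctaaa
B2M: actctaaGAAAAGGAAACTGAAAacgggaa
TAPBP: tttggagGAAAGTGAAAGTGAAAggag
PARP14: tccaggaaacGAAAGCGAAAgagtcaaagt
The TAP1, TAPBP and PARP14 windows overlap an annotated exon of their own gene in GENCODE 29, and the B2M window overlaps none. A match is only a run of letters, and whether a factor was bound there was not measured.

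Of 19 tested Notch pathway genes (of 21) 11 had a called difference (57.9%, against 20.2% of all genes), 8 above and 3 below 0. In DMS454 6 were higher and 1 was lower in G2, and in H1694 2 were higher and 7 were lower in G6. Over all genes 10.9% were higher and 10.9% lower in G2, and 7.21% higher and 6.22% lower in G6. The medians were 0.36, 0.24 and -0.10 for the difference, DMS454 and H1694. The 5 members with opposite calls, HEY1, LFNG, HES6, HES4 and NRARP, were all higher in G2 and lower in G6. HEY1, a repressor induced by Notch, had 625, 618 and 578 in DMS454 pL and 903, 879 and 909 in G2. In H1694 it had 1501, 1381 and 1514 in pL and 1084, 1017 and 1026 in G6. The arms were apart in both lines, with a difference of 1.05 (SE 0.08, adjusted p = 1.7e-07). LFNG, the Fringe glycosyltransferase that tunes which ligand a Notch receptor answers, had 2874, 2703 and 2881 in DMS454 pL and 3993, 3865 and 3815 in G2, and 765, 727 and 745 in H1694 pL and 504, 502 and 479 in G6. Here too the order of the arms was reversed (difference 1.06, SE 0.07, adjusted p = 2.3e-08). HES6, which hinders HES1 and favours neuronal fates, changed by 0.24 and -0.38 (difference 0.63, adjusted p = 1.4e-06). NRARP, a feedback inhibitor of Notch, changed by 0.64 and -0.38, and HES4 by 0.56 and -0.42. The H1694 call of NRARP was lost without any 1 of H1694G62, H1694G63, H1694pL1 or H1694pL3 (adjusted p 0.062 to 0.13), and that of HES4 without any 1 of the 6 H1694 libraries (0.06 to 0.16).

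The ligands and receptors did not follow the targets uniformly. JAG2, a Notch ligand, had 589.8, 539.6 and 929.7 in DMS454 pL and 1459.5, 1408 and 1434 in G2, with DMSpL3 the highest pL library, and 12020.5, 12591 and 13253 against 12813, 11950.4 and 12864 in H1694. The gap in DMS454 and the overlap in H1694 gave a difference of 1.11 (SE 0.24, adjusted p = 0.01). JAG1, its sister ligand, had the opposite sign, with -0.19 (adjusted p = 0.16) in DMS454 and 0.43 (adjusted p = 0.006) in H1694 and a difference of -0.62. The receptor NOTCH2 was lower in G2 (-0.59, adjusted p = 0.0014) and had an H1694 change of 0.27 (adjusted p = 0.13). NOTCH1 went with the targets in H1694, lower in G6 by -0.68 to -0.63 over 22 alternatives, and its difference of 0.82 to 1.21 was called in each. The H1694 call of NOTCH1 was lost on leaving out 1 library in 2 cases (adjusted p 0.053 to 0.061). HEY2, a relative of HEY1, was higher in G6, where HEY1 was lower. It had 404, 383 and 356 in H1694 pL and 774, 721 and 763 in G6, and 81.5, 63.3 and 51.3 against 67.9, 67.9 and 62.6 in DMS454, where the arms overlapped. JAG1, NOTCH2 and HEY2 were the 3 called members below 0. The RBPJ letters TGGGAA were in 5 of 15 Notch promoters (33.3%) and in 5760 of all 27305 (21.1%).

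**Figure D3:**
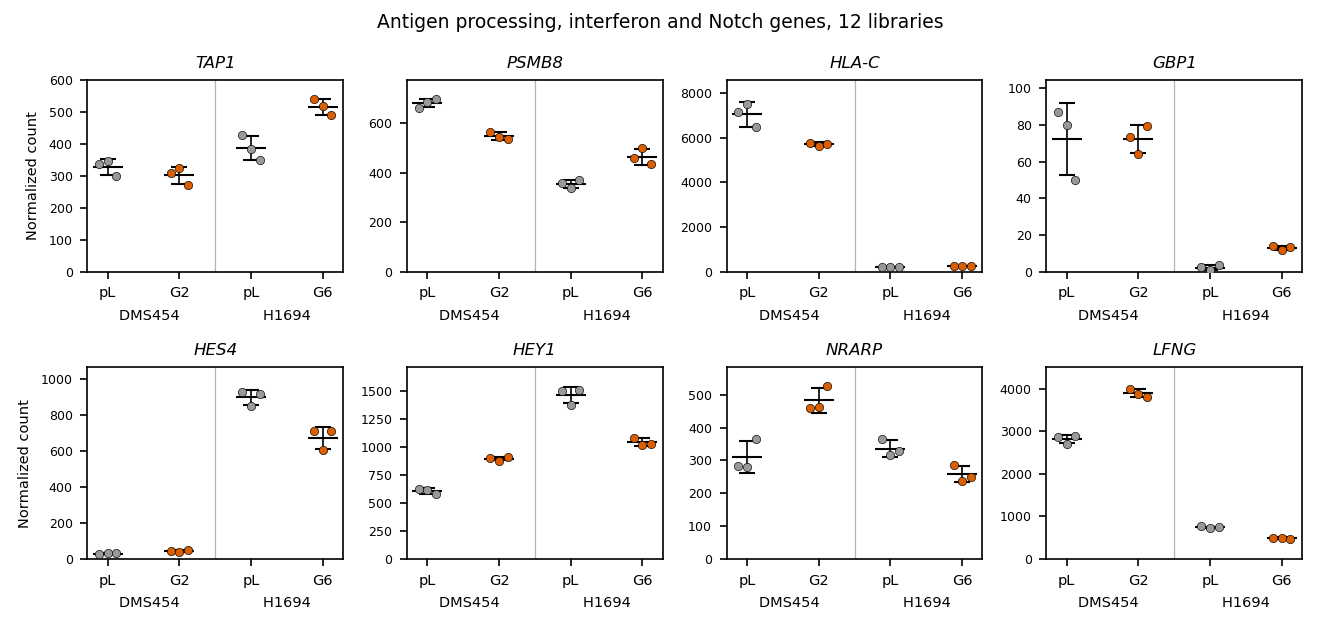
Normalized counts per library (y axis, from 0) of 4 class I and interferon genes and 4 Notch pathway genes in the pL and G arms of each line (x axis); points are libraries, the long bar is the mean and the whiskers are the SD of 3. TAP1 separates the arms in H1694 alone, PSMB8 and HLA-C are lower in G2 and higher in G6, and HES4, HEY1, NRARP and LFNG are higher in G2 and lower in G6.

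Among basement membrane and guidance genes the opposite changes included those of 2 collagen genes that lie head to head. COL4A3 (chromosome 2, 227164565 to 227314792, plus strand) and COL4A4 (227002711 to 227164453, minus strand) encode the type IV chains that assemble together, and their annotated starts are 112 bases apart in GENCODE 29. COL4A4 had 1422, 1471 and 1513 in DMS454 pL and 949, 965 and 986 in G2. In H1694 it had 89.4, 115 and 111 in pL and 275, 258 and 283 in G6. The order of the arms was reversed with no overlap, and the difference was -1.97 (SE 0.12, limma adjusted p = 2.3e-08). COL4A3 had 872, 896 and 870.4 in DMS454 pL and 434, 451 and 388 in G2, and 7.59, 19.4 and 28.1 in H1694 pL, where it is scarce, and 65.2, 68.3 and 78.8 in G6. It followed its neighbour in both lines, with changes of -1.05 (adjusted p = 0.041) and 2.06 (adjusted p = 0.0018) and a difference of -3.11 (SE 0.46, adjusted p = 0.00085). The DMS454 call of COL4A3 held without H1694pL1 or H1694pL3 and was lost without any 1 of the other 10 libraries (adjusted p 0.054 to 0.11). Both lines share 1 estimate of the spread per gene in this fit, so the scattered H1694 counts also enter the DMS454 call. The 111 bases between the starts are shown because the pair moved together, at chr2:227164454-227164564, plus strand, GRCh38.p14, with no motif marked.
COL4A3 and COL4A4: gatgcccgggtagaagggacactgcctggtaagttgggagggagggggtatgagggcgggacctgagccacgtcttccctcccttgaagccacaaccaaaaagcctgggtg
The libraries were strand-specific per the labels, but the strand setting of the counting is not given in the sources used here. Over the collagen list 4 of 11 tested members (of 31) were called (36.4%, against 20.2% of all genes), 1 above and 3 below 0.

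NRP1, a receptor for class 3 semaphorins and VEGF, had 222, 238 and 255 in DMS454 pL and 124, 149 and 140.4 in G2. In H1694 it had 103, 102 and 85.6 in pL and 287, 288 and 280.1 in G6, about 2.94 times the pL mean. The arms were apart in both lines and reversed (difference -2.34, SE 0.16, adjusted p = 8.6e-08). SEMA3A, the ligand of NRP1, had 145, 178 and 108 in DMS454 pL and 82.8, 87.1 and 94.5 in G2, and 304, 275 and 274 in H1694 pL and 439.5, 408 and 461 in G6 (difference -1.28, adjusted p = 0.00038). PLXNA2, a plexin that signals for the same complex, changed by -0.51 and 0.31 (difference -0.82, adjusted p = 4.5e-06). Receptor, ligand and co-receptor were thus each lower in G2 and higher in G6. The guidance list as a whole was two-sided, with 16 of 31 tested members (of 40) called (51.6%, against 20.2% of all genes). Of these 8 lay above and 8 below 0, and the list had a median of 0.06. It had 4 opposite calls, 3 of them the genes just described. The other 1 ran the other way, higher in G2 and lower in G6. EPHA3, an ephrin receptor, gave the largest positive difference by the naming rule. It had 5.82, 16.7 and 12.3 in DMS454 pL and 128, 133 and 114 in G2, and 29.5, 44.02 and 22.01 in H1694 pL and 63.97, 75.1 and 73.98 in G6. Both G arms lay above their pL arms, and the DMS454 step was larger, with a difference of 2.24 (SE 0.43, adjusted p = 0.0016). The H1694 call was lost without H1694G62, H1694G63 or H1694pL3 (adjusted p 0.055 to 0.075). Its relative EPHA4 changed in DMS454 (1.11) and had -0.16 (adjusted p = 0.42) in H1694.

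Enzymes and proteins that build or remodel matrix also differed. Of 22 tested matrix proteases and crosslinkers (of 38) 11 were called (50%, against 20.2% of all genes), 5 above and 6 below 0. Their median was -0.13. LOXL4, a lysyl oxidase that crosslinks collagen, had 255, 261 and 267 in H1694 pL and 1144, 1129.9 and 1203 in G6, a 4.45-fold step. In DMS454 it had 211, 218 and 288 in pL and 201, 195 and 159.9 in G2. The H1694 arms were far apart and those of DMS454 close, with a difference of -2.51 (SE 0.16, adjusted p = 2.7e-08). The DMS454 change of -0.36 was called, but not without DMSG23 (adjusted p = 0.15) or DMSpL3 (0.11). LOX, its relative, had -0.59 (adjusted p = 0.26) in DMS454 and 1.53 in H1694. Only 19 of the alternative settings gave a result for LOX, against 22 for LOXL4, and its H1694 adjusted p reached 0.046. Its values are a description. PLOD3, which hydroxylates collagen lysines, was reversed between lines (-0.43 and 0.43, difference -0.86, adjusted p = 2.7e-06). SMOC1, a calcium-binding matrix protein and BMP antagonist, had 1684, 1667 and 1408 in DMS454 pL and 909.7, 995 and 945 in G2, and 1272, 1211 and 1204 in H1694 pL and 1901, 1855 and 1847 in G6. It too was lower in G2 and higher in G6 with no overlap (difference -1.34, adjusted p = 4.2e-08). TENM3, a teneurin of neuronal contacts, had 1740.2, 1827 and 1229.7 in DMS454 pL and 1017, 1060.2 and 1094 in G2, and 466, 399 and 389 in H1694 pL and 983, 1015 and 979 in G6 (difference -1.83, adjusted p = 1.1e-05).

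Laminins and basement membrane genes split, with 11 of 20 tested (of 23) called (55%, against 20.2% of all genes). Of these 6 lay above and 5 below 0, and 7 members were called where a mean of at least 50 was asked. AGRN, the heparan sulfate proteoglycan agrin, was higher in G2 (0.32) and lower in G6 (-0.34). LAMA4 and NTN4 were lower in G2 (-1.45 and -1.20) with H1694 changes of 0.43 (adjusted p = 0.32) and 0.57 (adjusted p = 0.11). LAMB1, a laminin chain, was higher in G2 (0.63) with a difference of 0.59. Integrins gave 5 called of 13 tested (of 22), or 38.5% against 20.2% of all genes, 4 above and 1 below 0. With limma-voom 3 were called. ITGA6, the laminin receptor chain, had 429, 375 and 490.2 in DMS454 pL and 895, 912 and 893 in G2, and 1604, 1470.3 and 1407 in H1694 pL and 1553, 1509 and 1477 in G6. The arms were well apart in DMS454 and overlapped in H1694 (difference 1.05, adjusted p = 6.8e-06). ITGA2, a collagen receptor chain, was lower in G2 (-0.84) with 0.27 in H1694 and was the member below 0. Fibroblast markers, which include matrix genes, had a summed level of 431 to 467 in G2 and 335 to 381 in pL in DMS454. In H1694 it was 1597 to 1708 in G6 and 1276 to 1504 in pL. LUM was at or near 0 in every library, and COL1A2 had medians of 49.3 in DMS454 and 1212 in H1694. The 8 endothelium markers, none of them tested, had a summed level of 645 to 673 in G2 and 750 to 818 in pL in DMS454, and of 3131 to 3206 in G6 and 3688 to 3819 in pL in H1694, lower in the G arm of each line without overlap. The endothelium sums rest on different genes in the lines. CDH5 ran from 3094 to 3770 in H1694, close to the whole sum there. In DMS454 CDH5 was at most 1.11, PECAM1 at most 5.4 and VWF at most 20, so other members made up that sum. The part of either marker list in the matrix results was not tested.

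**Figure D4:**
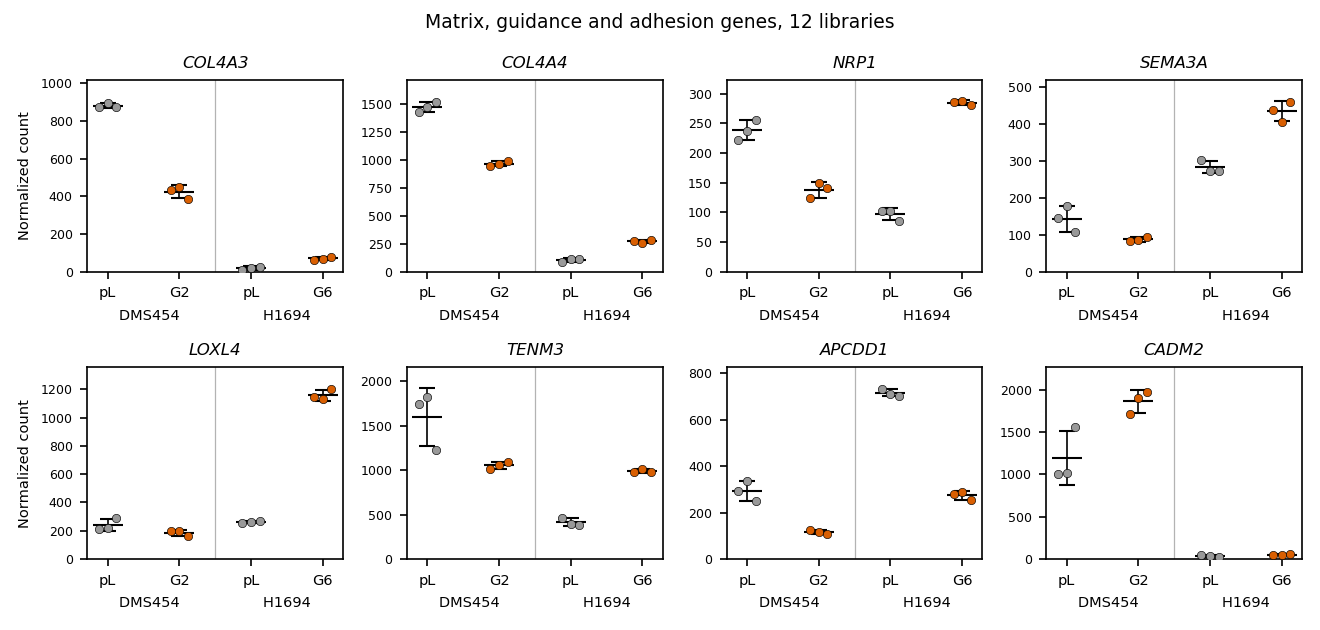
Normalized counts per library (y axis, from 0) of 8 matrix, guidance and adhesion genes in the pL and G arms of each line (x axis); points are libraries, the long bar is the mean and the whiskers are the SD of 3. COL4A3, COL4A4, NRP1, SEMA3A and TENM3 are lower in G2 and higher in G6, LOXL4 steps up in G6, APCDD1 is lower in both G arms and CADM2 is higher in both.

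TGF-beta response genes had 10 called of 18 tested (of 26), or 55.6% against 20.2% of all genes, 3 above and 7 below 0. Their median was -0.11. SMAD6, an inhibitory SMAD of the BMP branch, had 266, 261 and 257 in H1694 pL and 623, 687 and 719 in G6, and low, overlapping values in DMS454 (18.3, 34.4 and 19.5 in pL and 21.7, 13.9 and 23.6 in G2). Its difference was -1.62 (SE 0.31, adjusted p = 0.0017). ID3, a target of BMP signalling, had 0.50 in H1694 and -0.10 in DMS454 (difference -0.60, adjusted p = 0.00041).

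A set of genes was called in the same direction in both lines and not in the difference. APCDD1, a membrane inhibitor of Wnt signalling, had 294, 335 and 252 in DMS454 pL and 125, 116 and 109.8 in G2. In H1694 it had 733, 711 and 703 in pL and 278, 291 and 253 in G6. Both G arms lay far below, with means lower by 2.51-fold and 2.61-fold, and the difference of changes was 0.07 (SE 0.15, adjusted p = 0.77). GRIN2C, an NMDA receptor subunit, had 777, 736 and 821 in DMS454 pL and 1396, 1406 and 1457 in G2, and 479.9, 481 and 459 in H1694 pL and 898, 866 and 891 in G6. Its changes of 0.87 and 0.90 (adjusted p = 2.2e-08 and 2e-08) left a difference of -0.03 (SE 0.08). VGLL3, a cofactor of TEAD factors, had 17.5, 17.8 and 17.4 in DMS454 pL and 74.7, 50.9 and 44.5 in G2, and 398, 387 and 399.9 in H1694 pL and 975, 982 and 956 in G6. It was higher in every G library of both lines (1.60 and 1.29, difference 0.31, SE 0.21, adjusted p = 0.34). EYA1, a transcriptional coactivator with phosphatase activity, changed by 0.99 and 0.93 (difference 0.06, SE 0.15), and KLF9, a glucocorticoid-induced repressor, by -0.63 and -0.66 (difference 0.03, SE 0.18). WNT11, a noncanonical Wnt ligand, changed by 1.27 and 0.93, BEST3, a bestrophin channel, by 0.95 and 1.61, and FAXDC2 by 1.01 and 0.79. None of these 8 genes was called in the difference. A p above the threshold does not show that changes are equal, and the SEs give the room left.

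BIK, a BH3-only activator of apoptosis, and ETV4, an ETS factor of MAPK output, shared direction but not size. BIK changed by -1.93 in DMS454 and -0.72 in H1694, a called difference of -1.21 (adjusted p = 0.0014), though its H1694 call was lost with limma-voom (adjusted p = 0.12). ETV4 changed by -0.53 and -1.04 (difference 0.51, adjusted p = 0.028), a difference lost without DMSG21, DMSG22, H1694G63 or H1694pL1 (0.055 to 0.072). Of 27 tested MAPK feedback and immediate early genes (of 31) 3 were lower in both lines, ETV4, its relative ETV5 and SPRED2, an inhibitor of Ras signalling. The H1694 call of ETV5 was lost without H1694G63 or H1694pL2, and the DMS454 call of SPRED2 without DMSG21, DMSpL1, DMSpL2, H1694G61, H1694G62, H1694G63 or H1694pL2 (adjusted p 0.05 to 0.19). In DMS454 7 were lower and none was higher, and in H1694 5 were lower and 4 were higher. Of the list 6 differences were called (22.2%, against 20.2% of all genes), or 3 without DMSG22 or without H1694G63. Of 33 Wnt regulators 16 were tested and 4 had called differences (25%, against 20.2% of all genes). WNT11 was higher in both lines, and APCDD1, DKK3 and WNT5A were lower in both. The DMS454 call of WNT5A was lost without any 1 of the DMS454 libraries but DMSpL3, and that of DKK3 without any 1 of DMSG22, DMSG23, DMSpL1, DMSpL2 or the H1694 libraries but H1694pL1 (adjusted p 0.055 to 0.19).

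Immunoglobulin-like adhesion molecules, the family of HEPACAM2, held 4 shared calls among 20 tested (32 members): HEPACAM2 lower in both, and CADM1, CADM2 and JAM3 higher in both. The list also held 2 opposite calls. BCAM was higher in G2 and lower in G6, and CNTN4 was lower in G2 and higher in G6. The H1694 call was lost on leaving out 1 library in 5 cases for BCAM (adjusted p 0.059 to 0.11) and 6 for CNTN4 (0.054 to 0.13). CADM1, a synaptic and epithelial adhesion molecule, had 2946, 2838 and 3055 in DMS454 pL and 3777, 3961 and 3927 in G2, and 749.9, 720.2 and 664 in H1694 pL and 996, 982 and 1044 in G6. It was higher in every G library, with changes of 0.40 and 0.50 (difference -0.10, SE 0.07, adjusted p = 0.35). JAM3, of cell junctions, changed by 0.21 and 0.34 (difference -0.13, SE 0.06). CADM2, a further synaptic adhesion molecule, changed by 0.67 and 0.65, but its DMS454 call was lost without DMSG22, DMSG23, DMSpL1 or DMSpL2 and its H1694 call without H1694G61, H1694G62, H1694G63, H1694pL2 or H1694pL3 (adjusted p 0.051 to 0.11), and the H1694 call with edgeR, DESeq2 and limma-voom. Of the list 10 differences were called (50%, against 20.2% of all genes), 6 above and 4 below 0. That count came to 6 without DMSG22, 5 without DMSG23, 6 without DMSpL1, 5 without H1694G61, 6 without H1694G63, 6 without H1694pL2 and 5 without H1694pL3.

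Oxidant defence genes called in either line were higher in the G arm. Of 31 tested NRF2 and oxidant defence genes (of 35) 17 were higher and none was lower in G2, and 8 were higher and none was lower in G6, against 10.9% and 7.21% of all genes higher. The list medians were 0.24 in DMS454 and 0.13 in H1694, and 5 members were called higher in both lines: TXNRD1, PRDX1, GPX3, OSGIN1 and AKR1B10. Of these TXNRD1 alone kept both calls whichever library was left out. TXNRD1, thioredoxin reductase, had 40156, 39504 and 45304 in DMS454 pL and 56406, 58363 and 58729 in G2, and 8744, 8236 and 7914 in H1694 pL and 10852, 10932 and 10426 in G6. Its changes were 0.48 and 0.37 (difference 0.10, SE 0.07, adjusted p = 0.31). NQO1, the quinone reductase often used as an NRF2 readout, separated the lines: it had 188, 169 and 171 in H1694 pL and 412, 449.7 and 415 in G6, a 2.42-fold step, and 7923, 7718 and 9258 against 9399, 9339 and 9429.9 in DMS454. The difference was -1.09 (SE 0.09, adjusted p = 8.2e-07). AKR1B10, an aldo-keto reductase, changed by 0.32 and 1.28 (difference -0.96), and its DMS454 call was lost without DMSpL1 or DMSpL2 (adjusted p 0.053 to 0.061), as was that of OSGIN1 (0.053 to 0.066). The DMS454 call of PRDX1 was lost without DMSG21, DMSG23, DMSpL1 or DMSpL2 and that of GPX3 without DMSpL1, and their H1694 calls without H1694pL2, that of GPX3 also without H1694G61, H1694G62, H1694pL1 or H1694pL3 (0.051 to 0.11). In the other direction PGD, of the pentose phosphate pathway, was higher in G2 (0.43) with -0.02 in H1694. Of the list 9 differences were called (29%, against 20.2% of all genes), 5 above and 4 below 0. Without DMSpL3 16 were called, and 22 without DMSpL3 and H1694pL1. The antioxidant response element letters TGACNNNGC were in 5 of 22 promoters of the list (22.7%) and in 3013 of all 27305 (11.03%).

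The neuroendocrine program did not move as a block. Of 23 tested markers (of 27) 14 had called differences (60.9%, against 20.2% of all genes), 7 above and 7 below 0. Their median was 0.01. NEUROD1, in the line where it is abundant, had an H1694 change of 0.04, which was not called. In DMS454, where its median was 82.5 normalized counts, it was lower in G2, by -0.86 to -0.63 over 22 alternatives. Its difference of changes was -0.90 to -0.66, and none of the 22 lost either call. CHGB, a secretory granule protein, had 12036, 11612 and 9701 in DMS454 pL and 9463, 9199 and 8942 in G2, and 5684, 5375 and 5391 in H1694 pL and 8051, 8232 and 8272 in G6. It was lower in G2 and higher in G6 (difference -0.84, SE 0.09, adjusted p = 8.2e-06). ENO2, neuronal enolase, had 206, 209.9 and 234 in DMS454 pL and 406, 426 and 357 in G2 and an H1694 change of 0.01 (difference 0.86). Synaptic vesicle and axon genes had 12 called of 23 tested (of 27), or 52.2% against 20.2% of all genes, 8 above and 4 below 0. SYT4, a synaptotagmin of dense-core vesicles, had 9613, 9518 and 9198 in DMS454 pL and 5190.5, 5495 and 5414 in G2, and 1299.8, 1236 and 1187 in H1694 pL and 1583, 1604 and 1489 in G6. The arms were apart and reversed (difference -1.14, SE 0.06, adjusted p = 7.9e-09). GAP43, of growth cones, and VAMP2, the vesicle SNARE, lay above 0 (1.33 and 0.83), and CPLX1, a complexin, below (-0.85).

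Cell cycle genes had small differences. Of 48 mitosis genes, all tested, 13 were called (27.1%, against 20.2% of all genes), 12 above and 1 below 0. In DMS454 18 were higher and 1 was lower in G2, and in H1694 none was higher and 3 were lower in G6. The median difference was 0.16, and 0.08 without DMSpL3. NUF2, of the kinetochore, had 1120.5, 1164 and 1095 in DMS454 pL and 1332, 1340.1 and 1347 in G2, and 1568, 1574 and 1607 in H1694 pL and 1226, 1289.8 and 1220.0 in G6, reversed without overlap (difference 0.60, SE 0.06, adjusted p = 9e-06). The other opposite calls were SPC25, a partner of NUF2, and MAD2L1, of the spindle checkpoint, both higher in G2 and lower in G6. The H1694 call of SPC25 was lost without H1694G61, H1694G63 or H1694pL3, that of MAD2L1 without H1694G61, H1694G62 or H1694pL3, and the DMS454 call of MAD2L1 without H1694G62 or any 1 of the 6 DMS454 libraries (adjusted p 0.05 to 0.12). Of 48 DNA replication genes 18 were called (37.5%), 14 above and 4 below 0, with a median of 0.09, and 11 without DMSG23. Cytosolic ribosomal proteins leaned the other way in DMS454, where 20 of 56 were lower and none was higher in G2, against 6 lower and 1 higher in G6. RPL15, of the large subunit, had 13722, 13551 and 11017 in DMS454 pL and 7440.2, 7300.4 and 7368 in G2, and 9607, 9218 and 9493 in H1694 pL and 8808, 8760.5 and 8802 in G6. The difference was -0.68 (SE 0.09, adjusted p = 8e-05), and reads of ribosomal genes can be shared with processed pseudogenes. Over the list 9 differences were called (16.1%, under the 20.2% of all genes), 1 above and 8 below 0. That count came to 5 without DMSG22, 14 without DMSpL3, 5 without H1694G62 and 15 without H1694pL1. None of the 13 mitochondrially encoded genes was called with limma in any of the 3 comparisons (0 at an unadjusted p under 0.05, and 0 with edgeR, DESeq2 and limma-voom in the difference), although their medians were 0.26 in DMS454 and -0.32 in H1694. Without H1694pL1 1 was called, and without DMSpL3 and H1694pL1 10 were.

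Other genes with large differences follow. DBH, which makes noradrenaline from dopamine, had 35.8, 35.5 and 47.7 in DMS454 pL and 58.4, 70.2 and 91.8 in G2, and 237, 276 and 260.5 in H1694 pL and 127, 125 and 125 in G6. CAMK2B, a neuronal calcium-calmodulin kinase, had 87.3, 84.4 and 88.9 in DMS454 pL and 181, 158 and 181 in G2, and 2082, 2342 and 2548 in H1694 pL and 1299.6, 1399 and 1387 in G6. Both were higher in G2 and lower in G6 with no overlap of the arms, with differences of 1.89 (adjusted p = 5.5e-05) and 1.75 (adjusted p = 4.8e-08). KIF19, a kinesin of cilia, had the same orientation (0.74 and -1.23, difference 1.97), as did the ubiquitin ligase MARCHF4 (difference 1.75) and RPRML (difference 1.47). DHRS2, a short-chain dehydrogenase, was the reverse: it had 917, 960.5 and 949 in DMS454 pL and 326, 353 and 377 in G2, and 66.6, 71.3 and 59.9 in H1694 pL and 97.1, 116 and 112 in G6. Its difference was -2.12 (adjusted p = 8.6e-08), and that of ZNF385B, a zinc finger gene, was -1.87. Several of the largest differences lay mostly in 1 line. ASIC4, an acid-sensing channel subunit, TCERG1L, GFRA3, a receptor for artemin, KCTD12, an auxiliary subunit of GABA-B receptors, and NECAB2, a neuronal calcium-binding protein, were higher in G2 (log2 changes of 1.86, 1.74, 1.77, 1.49 and 1.44). CALB2, calretinin, and ADCY2, an adenylyl cyclase, were lower in G2 (-1.45 and -1.86), with H1694 changes of 0.41 and 0.04. CALCRL, the calcitonin receptor-like receptor, was higher in G6 (1.76) with -0.12 in DMS454.

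Other lists were mixed or near the background. Cadherins and junction genes had 11 of 23 tested members called (47.8%, against 20.2% of all genes), 7 above and 4 below 0. Receptor tyrosine kinases and IGF genes had 9 of 22 (40.9%), 4 above and 5 below. Replication-dependent histones had 3 of 11 called (27.3%, against 20.2% of all genes), all above 0. Cytokines and NF-kB targets had 3 of 9 called (33.3%), all below. Either direction rests on 3 genes. Of the 9 cytokine and NF-kB genes 5 were lower in G2, against 10.9% of all genes, and none was called in H1694. Nuclear-encoded respiratory chain genes had 4 of 44 called (9.09%), under the 20.2% of all genes, with 1 to 13 over the alternatives: 2 without DMSG22, 9 without DMSpL3, 2 without H1694G63, 1 without H1694pL2 and 13 without DMSpL3 and H1694pL1.

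**Figure D5:**
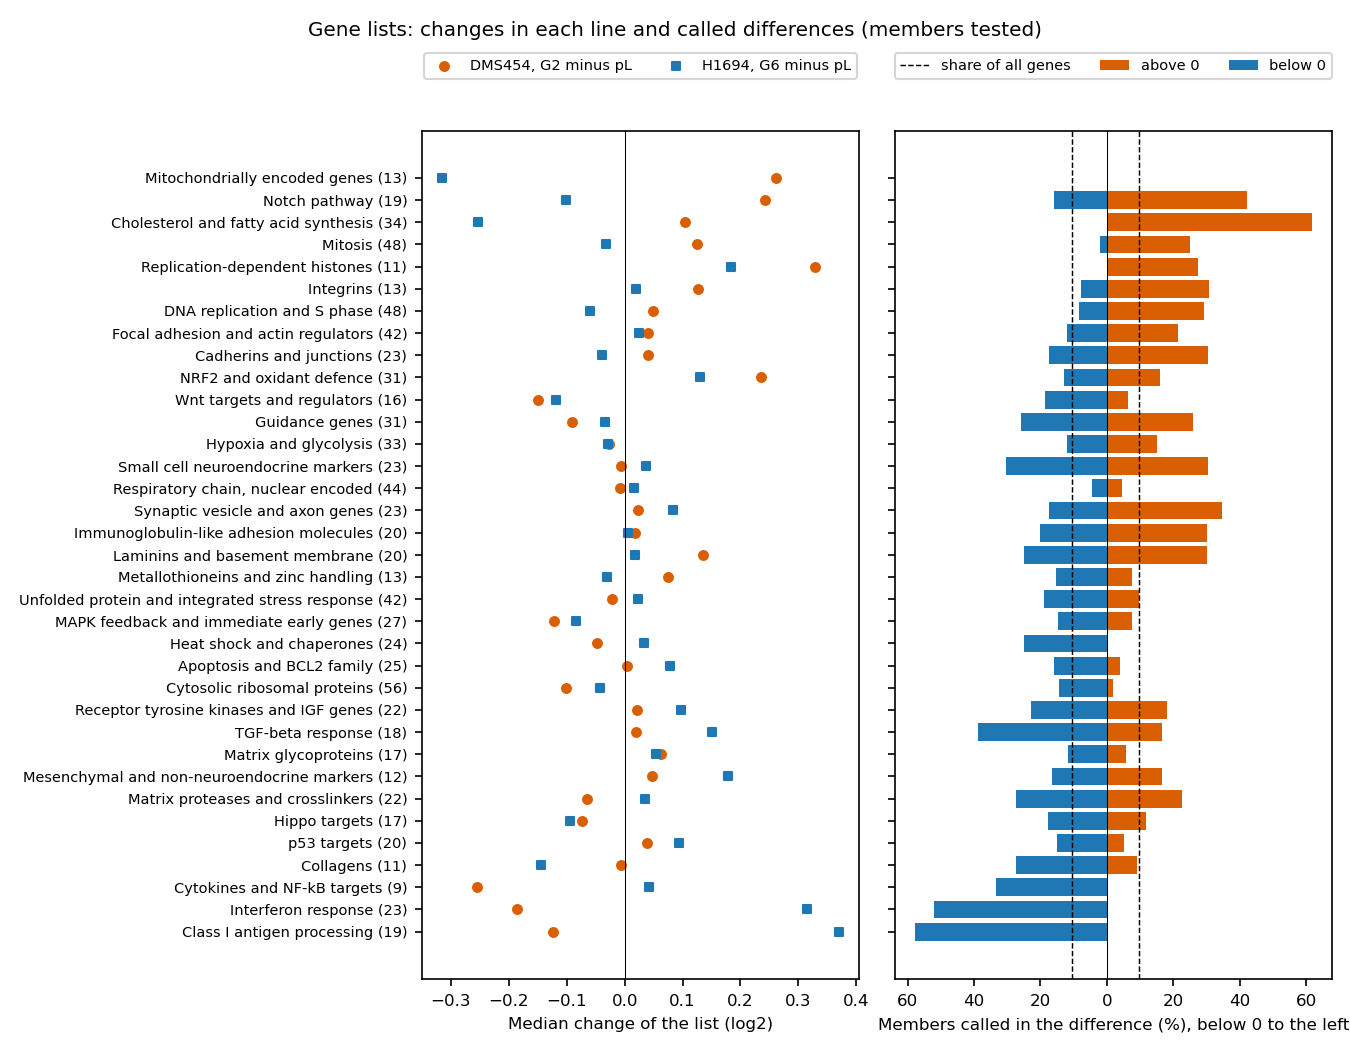
Left, the median log2 change of each gene list with at least 9 tested members, in DMS454 (circles) and H1694 (squares); right, the percentage of tested members called in the difference of changes, above 0 to the right and below 0 to the left, with dashed lines at the shares of all genes, 9.81% and 10.4%. Cholesterol and fatty acid synthesis stands furthest to the right, and class I antigen processing and the interferon response furthest to the left with no member called above 0.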

How the data were processed

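RNA was measured by strand-specific sequencing, per the labels. The submitters' processing notes name CASAVA, FastQC, Trim Galore, STAR, DESeq2 and hg38. The read counter, its annotation and tool versions were not given in the sources used here. Deposited signal values are normalized counts, that is reads divided by the authors' size factors, one table per line. The authors' deposited log2 fold changes and p-values were not used here, nor were the A549 and H1299 libraries. Whole reads were recovered from all values within 0.01 and gave the library totals.

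Gene symbols and coordinates came from GENCODE 29 (96.5% of identifiers matched; 90.1% of tested genes have a symbol), and promoters from RefSeq. limma 3.58.1 (trend and robust, R 4.3.3) was fitted once to log2(normalized count + 1) of 12 libraries with 4 group means, and p-values were adjusted by Benjamini-Hochberg over 15460 genes at a threshold of 0.05. Both lines thus shared 1 estimate of the spread per gene, so leaving out a library of 1 line could alter calls in the other. The log2 values of low genes understate ratios. Counts, from the recovered reads, served in edgeR 4.0.16, DESeq2 1.42.0 and limma-voom as alternatives, beside TMM scaling, other filters and pseudocounts, separate fits, a replicate block and leaving out each library. The step was tested on simulated data.

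The comparison, the 40 gene lists and the naming rule were chosen with earlier results of these data known. The rule named HEPACAM2, the 10 largest called differences in each direction, up to 8 shared and 8 opposite genes per direction and up to 4 called members per list, with a mean of at least 50 in the higher arm of each line. VGLL3, EPHA3 and DBH in DMS454 and COL4A3 in H1694 thus entered through the arm where they are high. The 10 largest were also limited to genes whose arms did not overlap in DMS454, H1694 or both. A lack of overlap in those genes is therefore partly a condition of their naming. Named outside it, after their values were seen, were DHCR7, SCD, HMGCS1, FDFT1, LSS, SREBF2, NSDHL, B2M, TAP1, TAPBP, HLA-C, GBP1, IFIT3, IFI27, HES4, HES6, HEY2, NOTCH1, NOTCH2, JAG1, PLXNA2, LOX, LAMA4, NTN4, SMAD6, DKK3, ETV5, SPRED2, CADM1, CADM2, JAM3, TXNRD1, PRDX1, GPX3, OSGIN1, PGD and MAD2L1. Some genes are not reported here.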

Additional observations from a re-analysis of the deposited data

Results flagged for a closer look

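The test of a difference between the lines is the comparison of the report itself, so each gene it called belongs here, 1517 above 0 and 1609 below. Among the named genes with opposite calls, those higher in G2 and lower in G6 had differences of changes of 1.97 (KIF19), 1.94 (SREBF1), 1.89 (DBH), 1.75 (CAMK2B), 1.75 (MARCHF4), 1.47 (RPRML) and 1.47 (DNAH17). Those lower in G2 and higher in G6 had -3.11 (COL4A3), -2.34 (NRP1), -2.12 (DHRS2), -1.97 (COL4A4), -1.87 (ZNF385B), -1.83 (TENM3), -1.34 (SMOC1) and -1.28 (SEMA3A). With 3 libraries per group, single libraries were not tested as outliers.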

How the results depend on the processing

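Called differences numbered 3211 with TMM, 3279 with edgeR, 3102 with DESeq2 and 3054 with limma-voom, and 2994, 2987, 2933 and 2805 of the 3126 kept their direction and call. Asking for an absolute log2 value of at least 1 left 416 differences, 220 DMS454 and 142 H1694 changes, 6 shared and 5 opposite genes. Leaving out 1 library in turn gave 2405 to 4170 differences, 2332 to 4472 DMS454 and 1292 to 2983 H1694 changes, 209 to 642 shared and 190 to 588 opposite genes. Leaving out DMSpL3 and H1694pL1, chosen after seeing the data, gave 5023, 5101, 3694, 768 and 827. The cause was not tested. Of 9781 values of named genes under alternatives, 9243 stayed on their side of the threshold, 538 lost the call and 0 reversed. Replicate numbers did not pair libraries: same-number deviations correlated from -0.1063 to 0.1463 and others from -0.1912 to 0.1979. With the replicate block 3149 differences were called (1558 above, 1591 below), 2881 of them among the 3126, with 3370 DMS454 and 1992 H1694 changes and 339 shared and 324 opposite genes. Low genes such as GBP1 and COL4A3 in H1694 rest on few counts, and the spread of 3 libraries per group limits the precision of small changes.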
